A study of Arabidopsis thaliana with 6 samples.

Results

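Chromatin immunoprecipitation followed by sequencing (ChIP-seq) had located the transcription factor NLP2 in Arabidopsis thaliana, and the regions described here are its peaks inside genes of nitrogen-starved seedlings. Members were chosen by 2 rules: the peak was in the T0 list and shared no base with any peak of the T30 list, and its summit lay inside a protein-coding gene of the nuclear chromosomes. This gave 235 of the 579 T0 peaks (40.6%), and of the 465 T0 peaks that no T30 peak touched (80.3% of the list), 50.5% qualified. The 2 lists together held 1172 peaks. T0 libraries came from seedlings whose nitrogen-free medium was replaced by fresh medium of the same kind, and T30 libraries from seedlings given 3 mM nitrate for 30 min. All seedlings, labelled as 14 days old, carried the nlp2-2 mutation in Col-0 and a pNLP2::NLP2-GFP construct, so the tagged protein was made from the gene's own promoter, and all had been starved of nitrogen for 3 days. Chromatin was crosslinked with 2.5 mM of the protein crosslinker DSG for 60 min and then 1% formaldehyde for 7 min. Antibodies against GFP were used on whole seedlings, with 2 immunoprecipitated libraries and 1 input library at each time. No immunoprecipitation from seedlings without the GFP construct was analysed here. Each list pools its 2 libraries, so no peak has a replicate error, and the read depth is not given with the lists.

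NLP2 belongs to the NIN-like proteins, plant transcription factors with a DNA-binding RWP-RK domain and a PB1 domain for contacts between proteins. Nitrate activates this family, and its relative NLP7 is known to be held in the nucleus when nitrate arrives and to leave it when nitrate is absent. Well-known targets of the family are genes of nitrate uptake and reduction, which are usually bound near their start.

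The starvation-only peaks inside genes were shallow and wide, with summits spread over the interior of genes, and none had its summit in a listed gene of nitrate use. Of 30 genes that take up or reduce nitrate, supply the reductant for it or regulate these steps, among them NIA1, NIR1, NRT2.1, LBD37 and NLP7, 0 held a member summit. Members' summits fell in 0.904% of all protein-coding genes, a share that would put fewer than 1 in a list of 30, so this 0 carries little weight by itself. Of the same 30 genes, 12 held a summit of the 171 nitrate-only peaks inside genes, which are the T30 peaks that no T0 peak touched and whose summit lay in a gene (28.8% of the 593 T30 peaks, in 0.63% of protein-coding genes). The 235 member summits fell in 248 of the 27444 protein-coding genes, because 13 summits lay where 2 genes overlap. No gene held more than 1 member summit. A symbol other than the locus code was given for 106 of the 248 genes (42.7%), against 37.8% of all protein-coding genes, so that many of the genes are known here by locus code alone.

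Members had shallow folds, as the authors' peak caller gave them, between 1.90 and 2.39, with a median of 2.03 and quartiles of 1.99 and 2.098. The median fold of the whole T0 list was 2.06, and 89 of the 235 members (37.9%) reached it. The list held 91 peaks with a fold above the highest member, of which 81 were shared with the T30 list and 10 were starvation-only peaks outside genes. The starvation-only peaks outside genes had a median fold of 2.03 and the shared T0 peaks one of 2.61. The −log10 q of members ran from 16.1 to 36.0. The T30 list stopped at 20.4, so 172 of the 235 members (73.2%) were weaker than any peak the T30 list kept, and the absence of a T30 peak at those places cannot be told apart from the difference in cut-off. The remaining 63 members reached the T30 minimum.

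**Figure D1:**
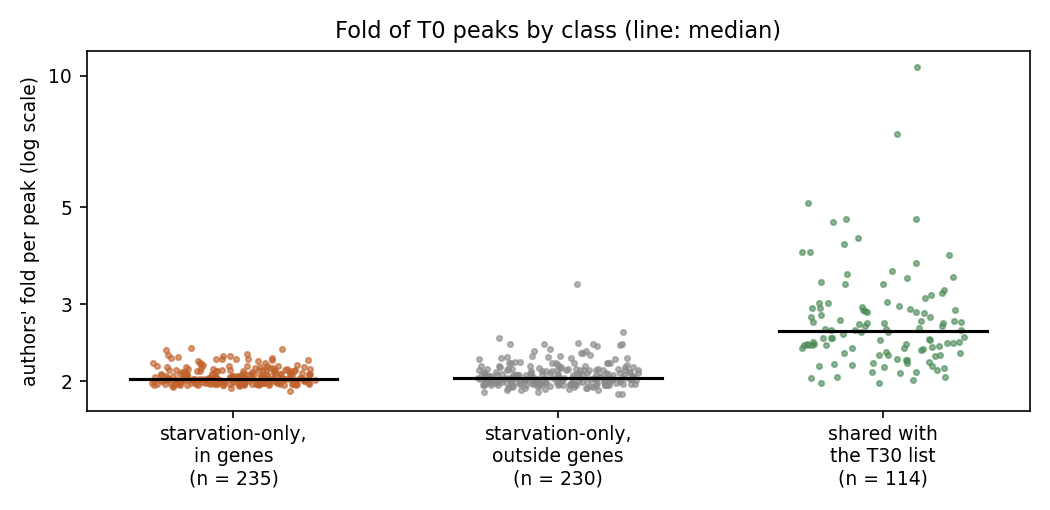
The authors' fold (log axis) of each T0 peak, by class; points are peaks, spread sideways for legibility, and the line is the median. The 235 starvation-only peaks in genes lie between 1.90 and 2.39, while the 114 shared peaks have a median of 2.61 and reach 10.5.

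The folds were not continuous. In the T0 list 73.7% of them were whole multiples of 0.00900 within 0.05 of a step, and 201 of the 235 members (85.5%) were. This step was the best of many tried on the same folds. A single arbitrary step would fit 10% of values, and the best of many fits more by the choice alone. Counted in these steps, the members ran from 211 to 265 with a median of 226. The T30 list had a similar step of 0.00948, found in the same way. If 1 step were 1 DNA fragment at the summit, which no header states, a count of 226 would have an exact Poisson interval of 197 to 257 steps, or folds of 1.78 to 2.32. That interval holds 232 of the 235 members, so the order of members by fold is within such counting error except at the very top. For the nitrate-only peaks inside genes, the same interval around their median of 286 steps held 44 of 171.

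Summits of members were spread over the interior of genes, further from the ends than nitrate-only summits. The nearest gene end was a median of 601 bp from the member summit, against 166 bp for nitrate-only peaks inside genes. The strand of genes was not known here, so the end could be either the start or the finish of transcription. In the gene stretch from 20% to 80% of its length lay 180 of 235 member summits (76.6%, 95% interval 70.7% to 81.9%), against 33 of 171 nitrate-only summits (19.3%, interval 13.7% to 26.0%). The difference passed Fisher's exact test (two-sided, odds ratio 13.7, p = 1.55e-30 after adjustment over 7 tests). That stretch makes up 60% of every gene, so the members lay above this share and the nitrate-only summits below it. Between 0.4 and 0.6 of the gene's length lay 59 member summits (25.1%) and 8 nitrate-only ones (4.68%). Within 500 bp of either end lay 88 of 235 member summits (37.4%) and 141 of 171 nitrate-only summits (82.5%, adjusted p = 7.57e-20 and odds ratio 0.127 by the same exact test). In the members' genes such stretches took up 50.1% of a gene on average over genes and 35.02% of all bases of these genes together, so the members' 37.4% lay between both measures. No member summit lay within 50 bp of a gene end, which allows a share of up to 1.28%, whereas 26 nitrate-only summits (15.2%) did. The interior position was not limited to peaks found at T0 alone: of the 24 shared T0 peaks with a summit in a gene, 21 had it in the stretch from 20% to 80%.

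**Figure D2:**
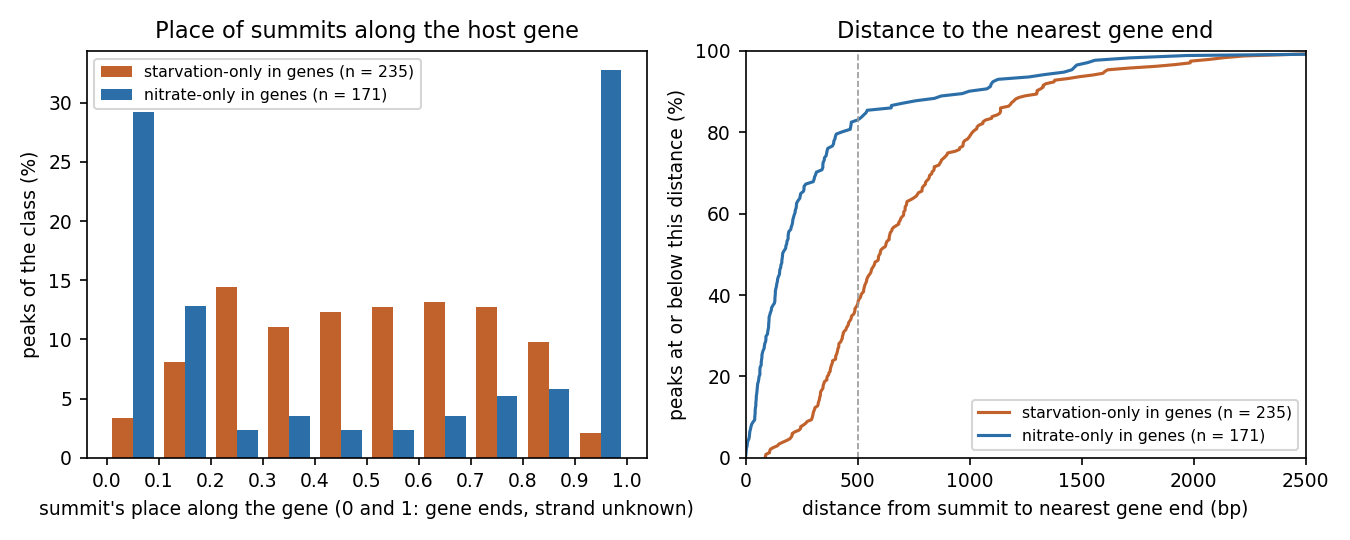
Left, the share of peaks in 10% stretches of the host gene, with 0 and 1 as the gene's ends on the chromosome. Right, the share of peaks with the summit at or below a given distance (bp) from the nearest gene end, with 500 bp dashed. Starvation-only summits spread over the interior, with a median distance of 601 bp, and nitrate-only summits gather at both ends, with a median of 166 bp.

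Most member peaks were contained in 1 gene. Both ends of the peak lay inside the gene for 221 of 235 members (94.0%, interval 90.2% to 96.7%), against 79 of 171 nitrate-only peaks (46.2%, interval 38.6% to 54.0%, adjusted p = 6.92e-28 and odds ratio 18.4 by Fisher's exact test). This result is not independent of summit place, since a peak with its summit near a gene end more readily crosses that end. The members' share was higher although member peaks were wider. Their median width was 688 bp, against 459 bp for nitrate-only peaks, and 183 of 235 members (77.9%) were at least 500 bp wide, against 75 of 171 nitrate-only peaks (43.9%, adjusted p = 4.90e-12 and odds ratio 4.50 by Fisher's exact test). The 2 lists differed in the same way as a whole, since 76% of all T0 peaks and 37.9% of all T30 peaks reached 500 bp, so the members were close to their own list.

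Member peaks also covered more of their gene, a median of 33.4% of its length against 15.5% for nitrate-only peaks. At least 50% of the gene was covered by 60 members and by 10 nitrate-only peaks. Across the 235 members, wider peaks tended to lie in longer genes, with a Spearman rho of 0.40, and across the nitrate-only peaks rho was -0.02. Both are descriptions across peaks of 1 list, and a peak inside a gene cannot be much wider than the gene. The share of genes at least 3000 bp long gave no difference past the threshold. Each gene was counted once, and only the longer gene where a summit lay in 2. Of these, 84 of 235 with members (35.7%) and 69 of 170 with nitrate-only summits (40.6%) were at least 3000 bp long (adjusted p = 0.409 and odds ratio 0.814 by Fisher's exact test). With both genes of such pairs kept, the median length was 2300 bp for all 248 genes with member summits and 2780 bp for the 173 with nitrate-only summits. It was 2078 bp for all protein-coding genes. The difference between these medians was not tested.

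**Figure D3:**
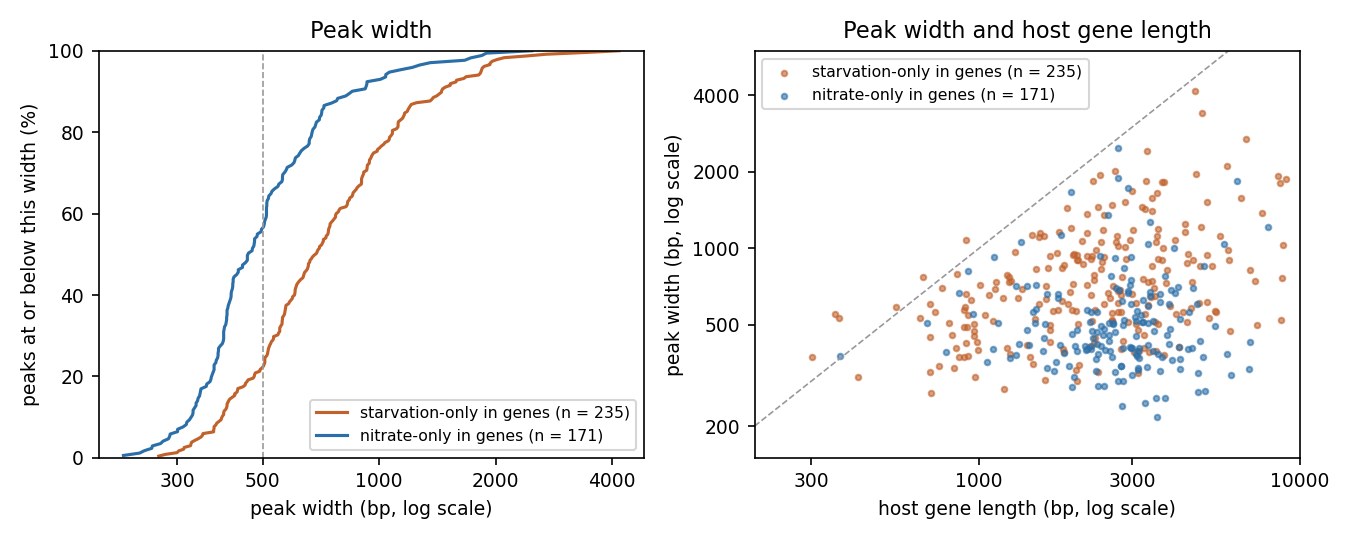
Left, the share of peaks at or below a given width (bp, log axis), with 500 bp dashed. Right, peak width against host gene length (both bp, log axes), 1 point per peak, with the dashed line where they are equal. Starvation-only peaks have a median width of 688 bp against 459 bp for nitrate-only peaks.

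Members were spread over the genome. Chromosomes 1 to 5 carried 59, 45, 45, 35 and 51 of them, or 25.1%, 19.1%, 19.1%, 14.9% and 21.7%, against 26.1%, 15.7%, 19.9%, 15.2% and 23.1% of the protein-coding genes. Gene-poor regions, where fewer than 100 protein-coding genes begin within 500 kb on each side, held 5 members and 0 nitrate-only peaks inside genes (two-sided Fisher's exact test, adjusted p = 0.107). Of the 230 starvation-only peaks outside genes, 162 lay there (70.4%). Members had to lie in a gene, so this contrast is partly set by the rule. The share of all protein-coding genes in such regions was not counted. None of the 235 members overlapped a called input peak of either time, which allows a share of up to 1.28%. None of the 171 nitrate-only peaks inside genes did either, while 28 of the 114 shared T0 peaks did. The names of the lists carry the tag noINPUT, which is not explained. Whether peaks over input were removed beforehand is therefore not known. A further transcript class at the summit was rare, with a long non-coding RNA gene at 4 member summits and 5 nitrate-only ones.

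By the rule, no member touched a T30 peak. The median gap to the closest T30 peak was 67011 bp, against 98647 bp for starvation-only peaks outside genes. Of the members, 3 had a T30 peak within 2000 bp. At the edge of the overlap rule, the member in CYP76G1 (AT3G52970), a cytochrome P450 gene, had a T30 peak 850 bp away, and a T0 peak in AT2G01140 counted as shared with 13 bp in common. At the edge of the gene rule, the member summit closest to a gene end lay 89 bp inside AT1G33860, and the closest starvation-only summit left out lay 7 bp outside a gene. In 2 genes a T30 summit lay elsewhere in the same gene: AT4G05612, and TDT (AT5G47560), which encodes the tonoplast dicarboxylate transporter that moves malate into the vacuole. In TDT the member peak, from 19288240 to 19289138 on chromosome 5, lay 1533 bp from its T30 peak.

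Genes of structural cell wall proteins held more members than the background share. They encode secreted proteins rich in proline, hydroxyproline or glycine, often built from short repeats, and include the extensins, which cross-link into the wall, and the heavily glycosylated arabinogalactan proteins. Of 106 genes whose symbol or synonyms name an extensin, an arabinogalactan protein or a proline-rich or glycine-rich protein, 9 held a member summit (8.49%, against 0.904% of all protein-coding genes), and 0 held a nitrate-only summit inside the gene. No test was made, because this family was listed with earlier results of these data known. Its exact search words were also written after the members' names had been seen, so the count is a description only. Folds of the 9 ran from 1.98 to 2.14 with a median of 2.03, equal to that of all members.

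PERK13 (AT1G70460), a receptor kinase with an extensin-like outer part, had the highest fold of the 9 at 2.14, in a peak on chromosome 1 from 26556212 to 26557405. AGP4 had a fold of 2.11, AGP2 one of 2.01 and AGP11 one of 1.99, all arabinogalactan protein genes. The AGP4 summit also lay in the overlapping gene AT5G10435. LRX1 (AT1G12040), which encodes a leucine-rich repeat extensin of root hair walls, had a fold of 2.08 in a peak covering 41.6% of the gene. ELP, an extensin-like gene, had 2.04, the extensin gene EXT4 had 1.99 and the proline-rich protein gene PRP4 had 1.98. The PRP4 summit also lay in the overlapping gene AT4G38775. Outside the 9, and named after their values were seen, were the early nodulin-like genes ENODL1 with 2.22 and ENODL3 with 1.98, and CWLP, the cell wall-plasma membrane linker protein gene, with 2.12. Within 1 pair of neighbouring genes, HRGP1 (AT3G54590), a hydroxyproline-rich glycoprotein gene, and AT3G54580 each carried a member. The HRGP1 peak, 20206397 to 20208418 on chromosome 3, covered 76.1% of the gene and had a fold of 2.03. The AT3G54580 peak, from 20201159 to 20203566, was 2408 bp wide with a fold of 2.36 and the highest −log10 q of all members, 36.0. Such genes share repeated coding sequence within and between them, so reads of one copy could have been placed on another, and how multiply mapping reads were treated is not given in the sources used here.

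**Figure D4:**
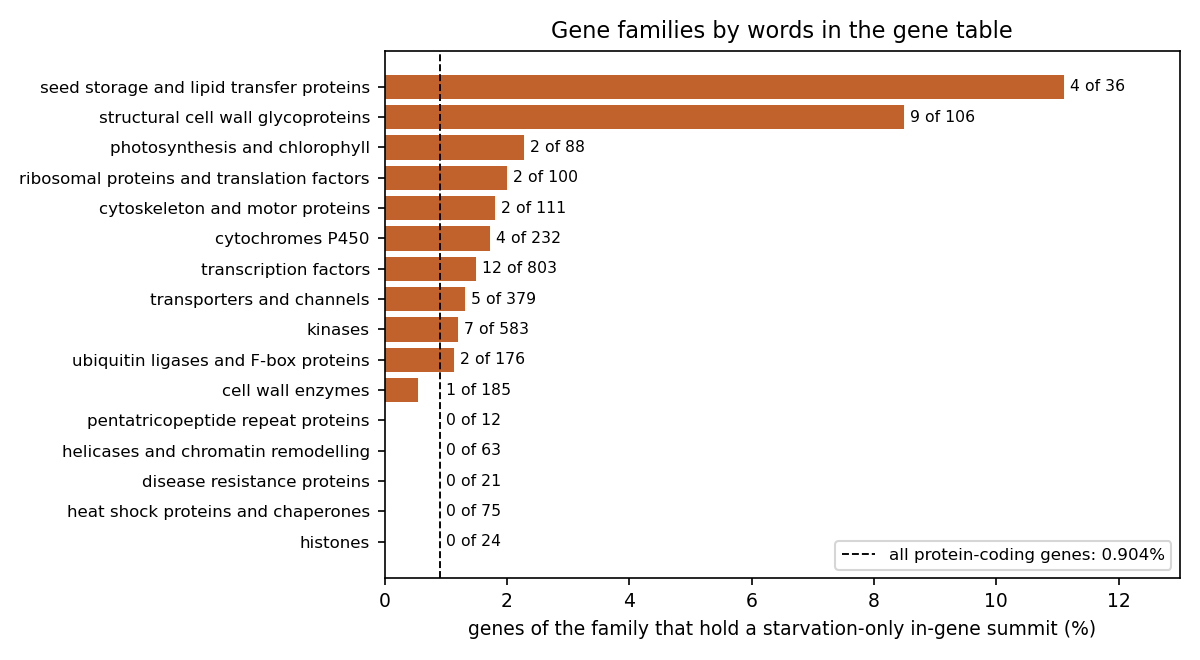
Share of the genes of each family that hold a starvation-only in-gene summit; bars are families found by words in the gene table, with counts beside them, and the dashed line is the share over all protein-coding genes. Seed storage and lipid transfer proteins (4 of 36) and structural cell wall glycoproteins (9 of 106) lie furthest above the line at 0.904%. The search words were written after the members' names had been seen, and the seed storage family was added then.

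Genes for small secreted or stored proteins made up the other family well above the background, with 4 of 36 (11.1%), against 1 of 36 for nitrate-only summits; it was added after the members' names had been seen. SESA1 (AT4G27140) and SESA3 (AT4G27160) encode seed storage albumins, which are made in the maturing seed. Their peaks, on chromosome 4 from 13607234 to 13607837 and from 13611644 to 13612344, had folds of 2.105 and 2.135 and covered 72.4% and 71.5% of the gene. A nitrate-only peak with its summit in SESA4 (AT4G27170), of the same family, lay 1235 bp from the SESA3 peak, with a fold of 2.13 in the T30 list. The lipid transfer protein genes LTP2 and LTP4 had folds of 2.03 and 1.97. SESA1 and SESA3 are close relatives, and the same limit on read placement holds for them.

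Transcription factor genes held 12 members among 803 (1.49%), with folds of 1.96 to 2.17. AGF1 (AT4G35390), an AT-hook gene of gibberellin feedback, had the highest of the 12. AS1 (AT2G37630), a MYB gene of leaf patterning, and JLO (AT4G00220), a LOB-domain gene of lateral organs, both had a fold of 2.09, and SCL13 (AT4G17230), of the GRAS family, had 2.04. The NAC genes SMB (AT1G79580), which acts in root cap maturation, and CUC1 (AT3G15170), which marks organ boundaries, both had 2.03. SPCH (AT5G53210), the bHLH factor that starts the stomatal lineage, had 2.16 in a peak on chromosome 5 from 21587723 to 21588113. SHR (AT4G37650), which patterns the root's inner layers, had 1.96, in a peak that covered 63.0% of the gene. AN3 (AT5G28640), a coactivator of leaf cell proliferation in a gene-poor region, had 2.07. The related B3-domain repressor genes HSI2 and HSL1, which silence the seed maturation programme in seedlings, both carried members, with folds of 1.99 and 2.08. SPCH, SHR, AN3, HSI2 and HSL1 were not found by the family's words and stand outside the 12; they and the NAC genes were named after their values had been seen.

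Among the hosts, 11 genes with a role in RNA handling were picked out after the list of genes had been seen; how many such genes the genome has was not counted, so they show no excess, and only their folds of 1.99 to 2.15 are given. They included both genes of the small subunit of the U2AF splicing factor, ATU2AF35A with 2.08 and U2AF35B with 2.06, and AT5G51300, a homologue of the splicing factor SF1, with 2.08. ESP1, an RNA 3′ end processing gene, had 2.15, and CPSF30, a cleavage and polyadenylation factor, had 2.01. AGO1 (AT1G48410), the main effector of microRNAs, had 2.03, its relative AGO3 had 2.12, and HYL1, which helps process microRNA precursors, had 2.05. The RNA-binding protein genes UBP1A, PTB2 and UBA2A had 2.11, 2.02 and 1.99. In the AGO1 gene the peak, on chromosome 1 from 17891119 to 17891939, covered 11.7% of the gene.

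A further 5 genes, of the RNA polymerase II machinery, were picked in the same way and likewise have no background share. NRB4, a Mediator subunit, had a fold of 2.08 and CDKE;1, the Mediator kinase, one of 2.03. CDKC2 and CDKC;1, kinases that act on elongating polymerase, had 2.02 and 1.97, and TAF15b had 2.06. The CDKC2 summit also lay in the overlapping gene AT5G64970. Genes of general cell functions included the tubulin genes TUB3 and TUA2 with 2.03 and 2.02, the translation initiation genes EIF4A-2 and eIFiso4G2 with 2.098 and 2.06, and the photosystem II gene PSBO1 with 2.06. No member fell in the genes matched by the words for histones (24 genes), heat shock proteins and chaperones (75), disease resistance proteins (21), helicases and chromatin remodelling (63) or pentatricopeptide repeat proteins (12). Genes of these kinds whose symbol and synonyms lack the words were not counted, so the members may include some. At 0.904% the background would put fewer than 1 member in each matched set, so these zeros carry little weight. That background is over all genes, whereas a match needs a telling symbol or synonym. A symbol was given for 42.7% of the members' genes and 37.8% of all protein-coding genes, and this difference was not allowed for. The other families, counted by the same words, rested on few members. Photosynthesis and chlorophyll had 2 of 88 (2.27%), ribosomal proteins and translation factors 2 of 100 (2.00%), cytoskeleton and motor proteins 2 of 111 (1.80%) and cytochromes P450 4 of 232 (1.72%). Kinases had 7 of 583 (1.20%), ubiquitin ligases and F-box proteins 2 of 176 (1.14%) and cell wall enzymes 1 of 185 (0.541%), the laccase gene LAC7 with a fold of 2.18. These counts too leave out genes that the words missed, so a share below the background shows no lack of members. Among kinases outside the groups above, the lectin receptor kinase gene AT5G42120 had 2.11 and D6PKL2, a kinase of auxin transport, 2.03.

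Transporters and channels held members in 5 of 379 genes (1.32%, against 0.904% of all protein-coding genes). Nitrate-only summits also fell in 5 of these 379. MOT1 (AT2G25680) imports molybdate, the metal source of nitrate reductase's cofactor, and its peak on chromosome 2 from 10933183 to 10934301 covered 69.9% of the gene with a fold of 1.99. AMT1;4, an ammonium transporter, and CLC-C, an anion channel family member, both had 1.97, TDT had 1.96 and AT5G52050, a detoxification efflux carrier, had 2.09. None of the 5 reached the lowest −log10 q of the T30 list.

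Of the 12 members with the highest folds, 9 (75%, counted per peak) lay in genes without a symbol. Counted per gene, 57.3% of the members' genes and 62.2% of all protein-coding genes had none. With 12 peaks this is a description only, and the difference was not tested. AT2G29210 led with 2.39, over 12560155 to 12561402 on chromosome 2. AT5G06630 followed with 2.37, in a peak on chromosome 5 from 2036567 to 2037675 that covered 71.8% of the gene. Next came AT3G54580 at 2.36, ATS3 (seed gene 3) at 2.30, the overlapping pair AT4G22475 and AT4G22485 at 2.30, AT1G26240 at 2.29, AT3G23450 at 2.28 and AT1G14710 at 2.27. AT1G24851 and NTMC2T4, a calcium-dependent lipid-binding protein gene, had 2.26, and AT1G44191 and IKU1, a gene of seed size, had 2.25. The widest member was 4173 bp, from 7803813 to 7807985 on chromosome 3 over the overlapping genes AT3G22125 and AT3G22142, and had a fold of 1.95. AT2G21390 had a peak of 3410 bp, the clock gene TIC (AT3G22380) one of 2707 bp and AT1G10390 one of 2105 bp. Width and fold were nearly unrelated across members (Spearman rho 0.07 over 235 peaks of 1 list). Besides AN3, the members in gene-poor regions were AT4G05612 with 2.22, AT2G10940 with 2.12, AT5G34885 with 1.97 and AT2G06105 with 1.95. At the lower limit of −log10 q, 16.1, stood 12 members with an equal fold of 1.96, among them SHR, TDT, AT2G04063, AT2G28240, AT2G36026, AT2G40620 and AT2G47120.

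Some members lay close to one another. Within 10 kb of each other lay 8 pairs of neighbouring summits, and 4 of them were in directly adjacent protein-coding genes. How many such pairs scattered peaks would give was not counted, so these pairs show no clustering. AT4G29620, AT4G29630 and AT4G29650 lay close together on chromosome 4, with folds of 2.13, 1.99 and 2.08 and 2635 and 5921 bp between summits. CWLP and the pair AT3G22125 and AT3G22142 lay 8857 bp apart with folds of 2.12 and 1.95. AT4G22475 and AT4G22485 lay 6868 bp from AT4G22495 and AT4G22505, with folds of 2.30 and 2.07. LTP2 lay 3866 bp from AT2G38510, with folds of 2.03 for each gene. AT3G47380 and AT3G47400, at 7793 bp, had 2.02 and 1.99.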

How the data were processed

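The authors' deposited peak lists were used, with 1 list per time for the immunoprecipitated libraries and 1 for the input. The build was TAIR10, and MACS2 2.1.1, SAMtools 1.7 and Bowtie2 2.3.4.1 are named, per the submitters' processing notes. The deposited fold of a peak is a ratio, and the authors' −log10 q and score accompany it; the score was not used. Replicates were pooled and filtered for reproducibility, going by the names of the lists, so p-values compare lists of peaks, not replicates. Positions are 1-based. Genes came from a RefSeq table of TAIR10.1, assumed to share nuclear coordinates with TAIR10; it has no strand, exons or sequence, so gene starts, motifs and proteins, though planned, were not analysed here and "either gene end" replaced the 5′ end. Where a summit lay in 2 genes, the longer gave position and length. Shares of member and nitrate-only peaks were compared by two-sided Fisher's exact tests in SciPy 1.17.1 with Benjamini-Hochberg adjustment over 7 tests at 0.05; the test was checked on simulated lists. Intervals are exact Clopper-Pearson 95% intervals and, like limits from a count of 0 (3 counts), cover counting error only. Members and lists were chosen with earlier results of these data known. Named genes were the 12 members with the highest fold, the 5 widest, 5 in gene-poor regions, 5 with the lowest q (ties in locus order) and up to 4 per family; other names were chosen after their values were seen. The exact search words of the families were written after the members' names were seen, and the P450 and seed storage families were added then. One further gene is not reported here.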

Additional observations from a re-analysis of the deposited data

How the results depend on the processing

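No paired analysis was possible because each list pools both replicates, so neither a replicate block nor leaving a replicate out could be run. The number of members depended on the cut-off: 63 remained with both lists held to the same −log10 q and 89 with peaks at or above their list's median fold, against 63 to 236 over all 8 settings. The share of summits from 20% to 80% of the gene was 71.8% to 80.1% for members and 12.4% to 24.2% for nitrate-only peaks over 10 settings, and that of peaks wholly inside a gene was 90.5% to 99.0% for members and 39.3% to 46.9% for nitrate-only peaks; both passed Fisher's exact test in each. These settings include host genes of 2000 to 4000 bp and peaks of 400 to 800 bp, both chosen after seeing the data. Distance to a gene end and width kept direction and call in all 12 and 9 settings. The share of long host genes missed the threshold throughout, and with a limit of 5000 bp its direction turned, at 10.2% of members' genes against 5.88% (Fisher's exact test, adjusted p = 0.172). Peaks carry no read depth or replicate error.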
